A study of Mus musculus with 12 samples.

Results

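The genes described here are 10 transporters that carry amino acids across the cell membrane, chosen by symbol from the 24107 genes of a deposited mouse expression table: Slc38a5, Slc38a1, Slc38a2, Slc1a5, Slc7a5, Slc3a2, Slc7a6, Slc43a1, Slc7a1 and Slc6a9. All 10 were found, and all 10 passed the filter used for testing (at least 1 FPKM in at least 3 libraries), which 11462 genes passed. FPKM is fragments counted per length of transcript and scaled for depth, so levels of different genes can be set side by side. The depth scale of the deposited values followed median-of-ratios size factors, set by the typical gene and not by total reads. The FPKM sums of libraries therefore ranged from 393786 to 622546. The study sequenced RNA from bone marrow cells of C57BL/6 mice in 12 libraries, 3 in each of 4 groups. Control MEP (megakaryocyte-erythroid progenitors, which give rise to red cells and platelets) were from mice of wild-type genotype, as was the control marrow, which was whole and not selected. The leukemic MEP and the GFP+ marrow cells had the genotype Prdm16s and were taken from recipients that had developed leukemia. Prdm16s, the leukemia, the recipient host and, in marrow, the selection of GFP+ cells cannot be told apart in these groups. Whether each library stands for a different mouse is not given by the labels, so p-values measure the spread between these libraries, which may be technical.

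Blood cells take up amino acids through families of exchangers and symporters with overlapping substrates. The Slc38 family moves glutamine and other small neutral amino acids with sodium, Slc1a5 exchanges neutral amino acids including glutamine, and Slc7a5 brings in leucine and other large neutral amino acids in exchange for glutamine, joined to its heavy chain Slc3a2 at the cell surface. Red cell precursors draw on glycine as a starting material of haem, and all dividing cells need amino acids for protein and nucleotide synthesis and for the signal that keeps the mTORC1 kinase active.

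The promoter sequences of 3 of the transporters are shown because the results turn on these genes: Slc38a5 and Slc43a1 were lower in both Prdm16s groups and Slc7a6 was higher in leukemic MEP. They are RefSeq sequences of the build GRCm38.p6, 250 bases before to 50 bases after a start site, all on the plus strand and written 5′ to 3′, at chrX:8271131-8271430, chr2:84840073-84840372 and chr8:106168604-106168903. Capitals mark matches to the motifs searched.
Slc38a5: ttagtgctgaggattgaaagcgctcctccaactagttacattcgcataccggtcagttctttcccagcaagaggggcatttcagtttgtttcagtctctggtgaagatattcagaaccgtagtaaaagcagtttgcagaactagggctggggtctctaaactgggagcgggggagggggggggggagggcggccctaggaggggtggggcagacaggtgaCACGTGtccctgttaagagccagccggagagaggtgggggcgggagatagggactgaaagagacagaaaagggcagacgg
Slc43a1: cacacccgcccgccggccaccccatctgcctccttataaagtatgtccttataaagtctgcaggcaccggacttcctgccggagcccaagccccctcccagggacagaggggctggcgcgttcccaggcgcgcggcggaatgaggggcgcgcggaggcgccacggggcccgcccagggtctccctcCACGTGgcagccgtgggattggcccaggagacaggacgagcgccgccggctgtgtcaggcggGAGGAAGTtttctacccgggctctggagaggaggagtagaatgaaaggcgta
Slc7a6: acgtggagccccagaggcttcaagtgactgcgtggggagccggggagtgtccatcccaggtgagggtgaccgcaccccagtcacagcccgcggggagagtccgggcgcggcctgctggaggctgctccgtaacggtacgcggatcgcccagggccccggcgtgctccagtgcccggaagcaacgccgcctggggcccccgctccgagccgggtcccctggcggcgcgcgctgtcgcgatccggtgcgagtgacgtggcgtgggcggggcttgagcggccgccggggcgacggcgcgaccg
The motifs, searched on both strands, were AGATAA (a site of Gata1 and its relatives, in 11.2% of 32851 promoter windows), CCACACCC (a CACCC box of the KLF1 type, 3.56%), CACGTG (an E-box, 7.15%), TGATGNAA (an amino acid response element, 3.97%) and GAGGAAGT (a PU.1 type ETS site, 3.2%). The Slc38a5 window held CACGTG 30 bases before the start. The Slc43a1 window held CACGTG 64 bases before the start and GAGGAAGT beginning 2 bases before it, and none of these matches overlapped another. The Slc7a6 window held none of the 5. GC content was 56% in the Slc38a5 window, 67.7% in that of Slc43a1 and 75.7% in that of Slc7a6, against a median of 52.7% over all windows. The counts of CpG dinucleotides were 10, 26 and 41, against a median of 7. Windows were found for 7 of the 10 genes (11 windows, as some genes have several starts). Among the others, Slc3a2 held CCACACCC beginning 7 bases after its start. A match is a description of letters, and its absence says nothing about a factor.

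Each library held between 571668 and 9708516 whole reads, and 2 of the 12 were shallow: leukemic MEP replicate 3 with 571668 reads and GFP+ marrow replicate 2 with 1149696, while the others had at least 6717971. Prdm16 was at 0.363 to 0.957 FPKM in the 6 control libraries and at 6.35 to 15.3 FPKM in the 6 Prdm16s libraries, as labelled. Leukemic MEP replicate 3 stood apart. Its Pearson r with replicates 1 and 2 was 0.806 and 0.794, against 0.966 between those replicates, and the granulocyte peroxidase gene Mpo stood at 7897 FPKM there against 167 and 150 FPKM. Gata1, which encodes a factor that red cell and megakaryocyte genes need, was at 37.7 FPKM there against 242 and 210 FPKM. Xist, the RNA of the inactive X chromosome, was at 0 there and at 0.00658 FPKM in GFP+ marrow replicate 3, against 39.2 to 57.1 FPKM in the other Prdm16s libraries and at most 0.0904 FPKM in the controls. The sex of the mice is not given by the labels. Such Xist levels would mark a difference in sex between most Prdm16s libraries and the controls. Its part in the levels of the transporters, Slc38a5 on chromosome X among them, was not tested. The MEP changes of the 10 transporters and of the amino acid genes named as called are given with and without leukemic MEP replicate 3. Summed over 15 erythroid markers in the table, the level was 11763 to 13438 FPKM in control MEP, 2914, 3224 and 623 FPKM in leukemic MEP replicates 1 to 3, 5067 to 6825 FPKM in control marrow and 239 to 965 FPKM in GFP+ marrow. None of these 15 was at 0 in every library of a group. The erythroid markers Ahsp, Hba-a1 and Hbb-bt were not analysed here. The sum of 12 megakaryocyte markers was 20.1 to 135 FPKM in control MEP and 5845, 4809 and 372 FPKM in leukemic MEP, and 16 granulocyte and monocyte markers summed to 31.5 to 420 FPKM and to 1477, 3058 and 108947 FPKM. In marrow the sums were 184 to 251 FPKM in control and 315 to 610 FPKM in GFP+ libraries for megakaryocyte markers, and 82229 to 98831 and 104922 to 151839 FPKM for granulocyte and monocyte markers.

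Between leukemic and control MEP, 1 of the 10 transporters rose (Slc7a6) and 3 fell (Slc38a5, Slc7a5 and Slc43a1) at an adjusted p below 0.05. Of all tested genes 26.0% were called, 13.7% higher and 12.3% lower. Between GFP+ and control marrow, 2 fell (Slc38a5 and Slc43a1) and none rose, against 9.05% of tested genes called, 3.02% higher and 6.03% lower. Changes were tested with limma on log2(FPKM + 1), a scale that understates the change of low genes, with p-values adjusted by the Benjamini-Hochberg method over all tested genes. The median change of the 10 was -0.16 in MEP and -0.61 in marrow (log2 scale), beside medians over all tested genes of 0.02 and -0.05. With leukemic MEP replicate 3 left out, 3 were called in MEP (1 higher and 2 lower, against 27.4% of genes) and 6 in marrow (1 higher and 5 lower, against 18.7%). In MEP 5 of the 10 had groups with no overlap between libraries, against 40.8% of genes, and in marrow 8 of 10, against 37.2%. The marrow counts of 6 and 8 include Slc6a9, which passed the filter through control marrow. That favours a fall in marrow, so Slc6a9 adds no support to these counts.

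**Figure D1:**
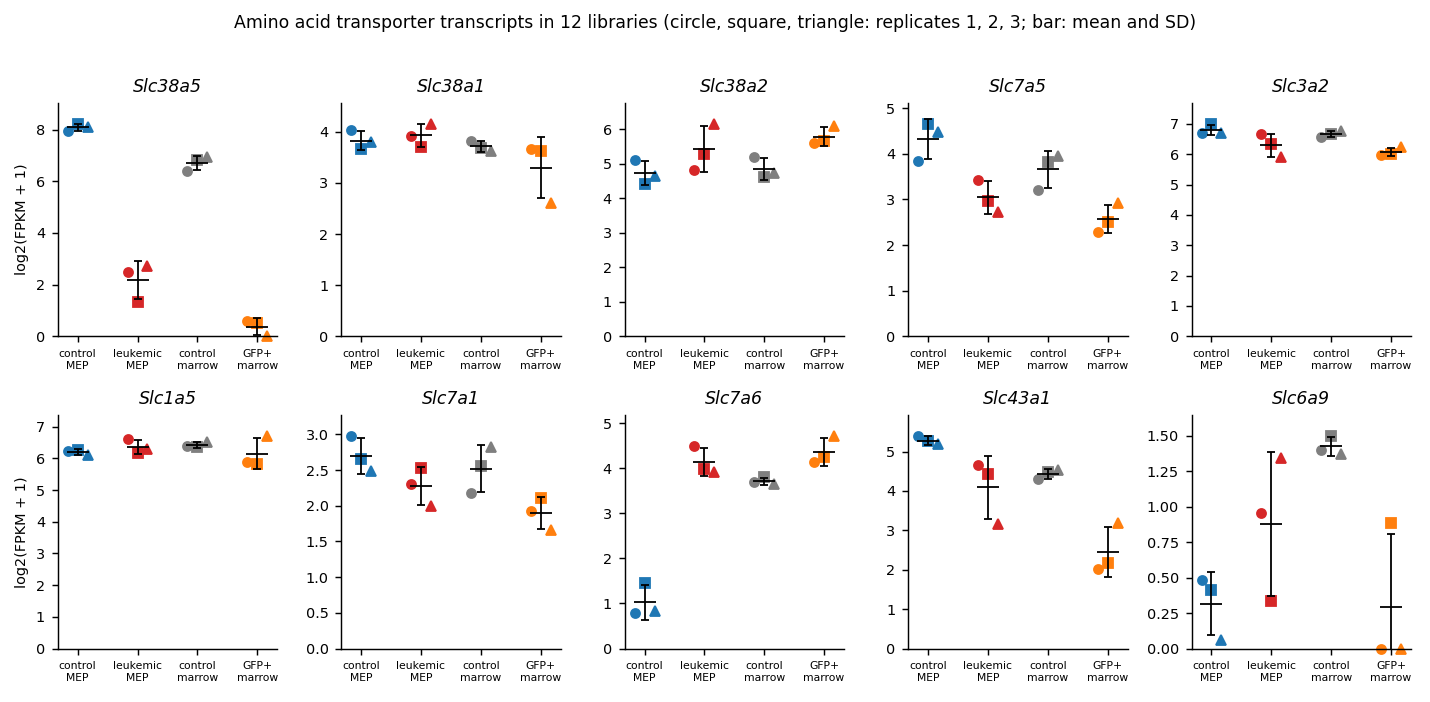
Levels of the 10 transporters as log2(FPKM + 1) in each of the 12 libraries, by group, with the mean and SD of 3 libraries as a bar; each panel has its own vertical scale. Slc38a5 is high in both control groups (83.1 to 298 FPKM) and at most 5.55 FPKM in the Prdm16s groups, while Slc7a6 is low in control MEP alone (0.718 to 1.75 FPKM).

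**Figure D2:**
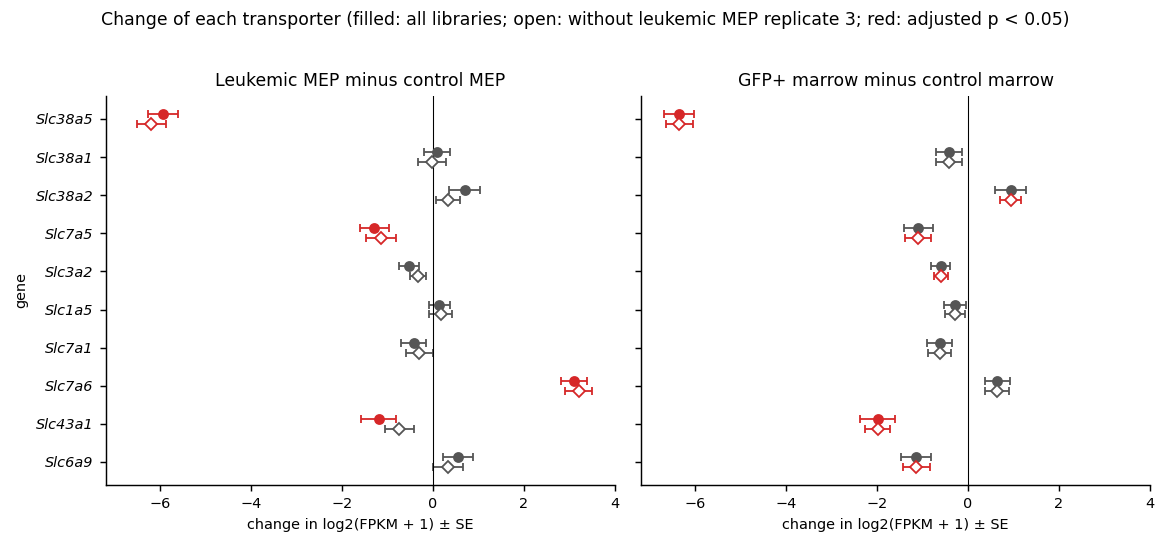
Change of each transporter between Prdm16s and control libraries on the log2(FPKM + 1) scale, with its standard error, from all 12 libraries (filled) and without leukemic MEP replicate 3 (open); red marks an adjusted p below 0.05. Slc38a5 has the largest fall of the 10 in both comparisons (-5.92 and -6.34), and Slc7a6 the largest rise in MEP (3.11).

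Slc38a5, the glutamine and glycine carrier SNAT5, was the transporter that differed most. It lies on chromosome X from 8271381 to 8280179 (GRCm38). Control MEP replicates 1 to 3 had 247, 298 and 277 FPKM, and leukemic MEP had 4.64, 1.51 and 5.55 FPKM. Control marrow had 83.1, 111 and 121 FPKM, and GFP+ marrow had 0.508, 0.439 and 0 FPKM. The 4 groups were fully separated, in the order control MEP, control marrow, leukemic MEP, GFP+ marrow, so that the lowest control library lay far above the highest Prdm16s library. The mean of 274 ± 26 FPKM (SD, n = 3) in control MEP was 70.3-fold that of 3.9 ± 2.12 FPKM (SD, n = 3) in leukemic MEP. In MEP Slc38a5 fell by 5.92 ± 0.33 (log2 scale, SE; limma, adjusted p = 6.17e-07). It fell by 6.34 ± 0.33 in marrow, from a mean of 105 ± 19.6 to 0.316 ± 0.275 FPKM (SD, n = 3 each; limma, adjusted p = 7.35e-07). In bulk samples such as these, fewer cells that carry a transcript and less of it per cell cannot be told apart.

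Few reads lay behind the low Slc38a5 levels. Pooled over 3 libraries, 142 reads in leukemic MEP stood against 13718 in control MEP, a ratio of 80.4 after scaling for depth (95% exact Poisson interval of the smaller count, 68.2 to 95.5). In marrow 8 reads stood against 5489, a ratio of 449 (228 to 1039). These intervals cover counting error only. GFP+ marrow replicate 3 had 0 reads, which allows a level of up to 0.168 FPKM at 3 reads. Both falls passed the test in each of the 22 alternative analyses run, and without leukemic MEP replicate 3 the MEP change was -6.19 (limma, adjusted p = 2.13e-07). The changes in MEP and marrow differed by 0.42 on the log2 scale (95% interval -0.61 to 1.44), which did not pass the test (limma, adjusted p = 0.707).

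Most erythroid markers moved with Slc38a5: of 15 tested, 11 fell and 1 rose in MEP, and 15 fell in marrow. Of all tested genes 12.3% were called lower and 13.7% higher in MEP, and 6.03% lower in marrow. The part of the erythroid markers in the fall of Slc38a5 was not tested. Across the 15, changes ran from -5.33 for Rhd, a blood group antigen gene, to 4.18 for the globin gene Hbb-bs in MEP, and from -5.91 for Rhd to -1.45 for the transferrin receptor gene Tfrc in marrow. Rhd went from a mean of 514 to 13.3 FPKM in MEP and from 234 to 7.3 FPKM in marrow. Ermap, a gene of a red cell membrane protein, had changes of -4.68 and -4.50. Gata1 had a change of -1.30 in MEP (limma, adjusted p = 0.0982), which was -0.45 without leukemic MEP replicate 3 (limma, adjusted p = 0.217), and fell by 2.15 in marrow (limma, adjusted p = 0.0277). Without that replicate the MEP changes were -5.62 for Rhd, -5.12 for Ermap and 5.67 for Hbb-bs. The markers differed widely among themselves, and Rhd lay nearest to Slc38a5 in both comparisons. The scale limits how far markers with low control levels can fall.

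The 4 genes whose log2 levels were most like those of Slc38a5 over the 12 libraries, among 6607 candidates, were Hpn (Pearson r = 0.996), Pklr (0.990), Samd14 (0.988) and Add2 (0.986). Hpn encodes the membrane serine protease hepsin, Pklr the liver and red cell pyruvate kinase, and Add2 the beta adducin of the membrane skeleton. Their mean levels in control MEP were 124 FPKM for Hpn, 68 for Pklr, 25.2 for Samd14 and 21.1 for Add2. In leukemic MEP they were at 2.2, 1.71, 0.413 and 1.12 FPKM, in the same order. The 12 points fall into the 4 groups and share the same normalization, so these coefficients describe the pattern of group levels.

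The closest relatives of Slc38a5 among the 10 were Slc38a1 and Slc38a2, the sodium-coupled carriers SNAT1 and SNAT2 of small neutral amino acids, the second of which is known to be induced when amino acids are scarce. Slc38a1 had 15.3, 11.6 and 12.9 FPKM in control MEP, 14.2, 12 and 16.8 FPKM in leukemic MEP, 13.2, 11.9 and 11.3 FPKM in control marrow and 11.6, 11.4 and 5.08 FPKM in GFP+ marrow. Its neighbouring groups overlapped throughout. The Slc38a1 changes were 0.10 ± 0.29 in MEP (limma, adjusted p = 0.832) and -0.41 ± 0.29 in marrow (limma, adjusted p = 0.424). The sign of the first turned without leukemic MEP replicate 3, to -0.01.

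Slc38a2 had 33.4, 20.4 and 23.9 FPKM in control MEP and 27.3, 38.2 and 70.3 FPKM in leukemic MEP. In control marrow it had 35.8, 23.5 and 25.4 FPKM, and in GFP+ marrow 47.1, 49.3 and 67.7 FPKM. The marrow groups did not overlap, while in MEP leukemic replicate 1 lay among the controls. The Slc38a2 change was 0.70 ± 0.33 in MEP (limma, adjusted p = 0.136) and 0.94 ± 0.33 in marrow (limma, adjusted p = 0.102). The marrow change of 0.94 passed the test without leukemic MEP replicate 3 (limma, adjusted p = 0.0189), and there the MEP change was 0.34 (limma, adjusted p = 0.411). With leukemic MEP replicate 1 left out instead, the MEP change passed the test (limma, adjusted p = 0.0445).

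The makeup of the Slc38 transcripts differed accordingly. Slc38a5 made up 83.5, 90.3 and 88.3% of the summed FPKM of the 3 Slc38 genes in control MEP and 10.1, 2.92 and 6% in leukemic MEP. Its share was 62.9, 75.9 and 76.7% in control marrow libraries and, among GFP+ ones, 0.857, 0.717 and 0%. Slc38a2 held the largest of the 3 shares in each Prdm16s library, from 59.2% to 93%. The sum itself went from 295, 330 and 314 FPKM in control MEP to 46.1, 51.6 and 92.6 FPKM in leukemic MEP, and from 132, 146 and 158 FPKM in control marrow to 59.2, 61.2 and 72.8 FPKM in GFP+ marrow. Over all 10 transporters the sum was 537 to 603 FPKM in control MEP, 248 to 302 FPKM in leukemic MEP, 351 to 412 FPKM in control marrow and 206 to 292 FPKM in GFP+ marrow.

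**Figure D3:**
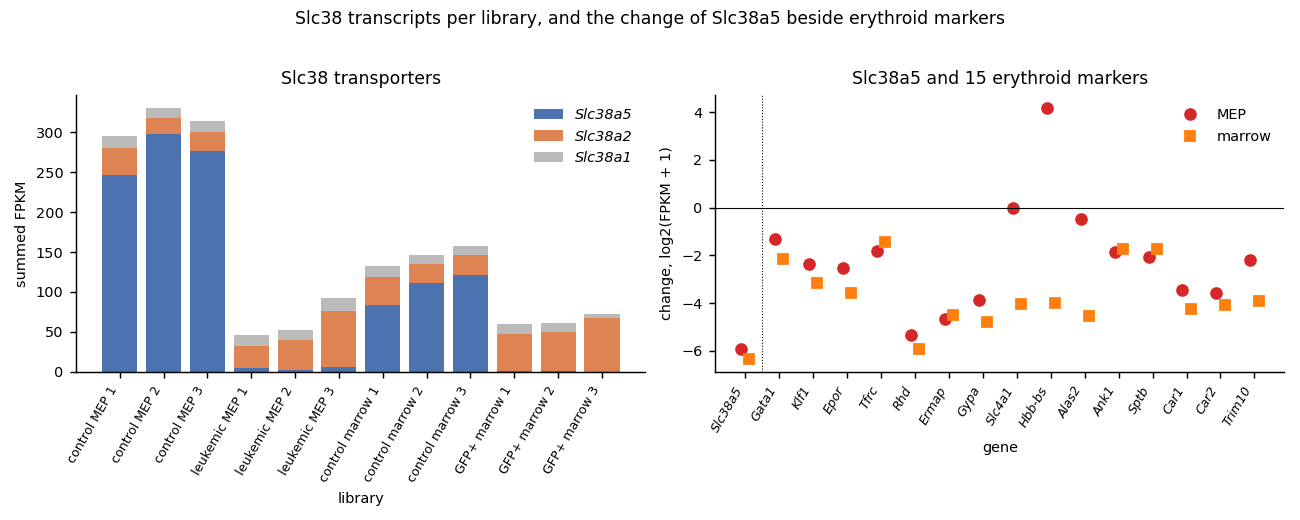
Left, stacked FPKM of Slc38a5, Slc38a2 and Slc38a1 in each of the 12 libraries; right, the change of Slc38a5 and of each of 15 erythroid markers on the log2(FPKM + 1) scale, in MEP (circles) and marrow (squares). Slc38a5 is 62.9 to 90.3% of the stack in controls and at most 10.1% in Prdm16s libraries, and of the markers Rhd (-5.33 and -5.91) lies nearest to it.

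Slc1a5, the neutral amino acid exchanger ASCT2 and a main route for glutamine, was among the 3 most abundant of the 10 in every group and passed the test in neither comparison. It had 74.7, 76.5 and 67.1 FPKM in control MEP, 95.9, 70.5 and 77.7 FPKM in leukemic MEP, 82.2, 81 and 90.4 FPKM in control marrow and 58.2, 55.8 and 103 FPKM in GFP+ marrow. GFP+ marrow replicate 3 was the highest library of all and the other GFP+ libraries were the lowest. The Slc1a5 change was 0.15 ± 0.24 in MEP (95% interval -0.37 to 0.67; limma, adjusted p = 0.68; 0.18 without leukemic MEP replicate 3) and -0.28 ± 0.24 in marrow (95% interval -0.79 to 0.24; limma, adjusted p = 0.518).

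Slc7a5, the leucine importer LAT1, had 13.3, 24.2 and 21.2 FPKM in control MEP and 9.82, 6.77 and 5.65 FPKM in leukemic MEP. It had 8.17, 13.2 and 14.5 FPKM in control marrow and 3.91, 4.69 and 6.53 FPKM in GFP+ marrow. Groups did not overlap in either comparison. Slc7a5 fell by 1.28 ± 0.32 in MEP (limma, adjusted p = 0.011; change of -1.13 and adjusted p = 0.0237 without leukemic MEP replicate 3). Without control MEP replicate 2 that change was -1.12 and missed the threshold (limma, adjusted p = 0.0524). The marrow change of -1.09 ± 0.32 was just outside it (limma, adjusted p = 0.0516), and inside it without leukemic MEP replicate 3 (limma, adjusted p = 0.0227). The difference between the 2 changes, -0.19, did not pass the test (95% interval -1.16 to 0.78; limma, adjusted p = 0.875).

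Slc3a2, the heavy chain that Slc7a5, Slc7a6 and related light chains need to reach the cell surface, had 104, 127 and 104 FPKM in control MEP and 99.5, 78.9 and 58.9 FPKM in leukemic MEP. It had 93.2, 100 and 108 FPKM in control marrow and 62, 63.3 and 73.9 FPKM in GFP+ marrow. Each Prdm16s library was below each control library of its population. The Slc3a2 changes of -0.52 ± 0.21 in MEP (limma, adjusted p = 0.0924) and -0.59 ± 0.21 in marrow (limma, adjusted p = 0.108) did not pass the test. The marrow change passed it without leukemic MEP replicate 3 (limma, adjusted p = 0.0254), where the MEP change was -0.32 (limma, adjusted p = 0.227). With leukemic MEP replicate 1 left out, the MEP change was -0.70 and passed it (limma, adjusted p = 0.0377).

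Slc7a6, the light chain y+LAT2 that exchanges cationic for neutral amino acids, went the other way. It lies on chromosome 8 from 106168219 to 106198714 (GRCm38). Control MEP had 0.718, 1.75 and 0.77 FPKM, from 34, 66 and 28 reads, and leukemic MEP had 21.4, 14.7 and 14.2 FPKM, from 1213, 611 and 43 reads. Control marrow had 11.9, 12.9 and 11.5 FPKM and GFP+ marrow 16.5, 17.9 and 25.2 FPKM. Control MEP was the low group, leukemic MEP lay above control marrow without overlap, and leukemic MEP overlapped GFP+ marrow. Slc7a6 rose by 3.11 ± 0.28 in MEP, 15.6-fold by the group means of 1.08 ± 0.579 and 16.8 ± 4.05 FPKM (SD, n = 3 each; limma, adjusted p = 1.13e-05). Its marrow change of 0.65 ± 0.28 did not pass the test (limma, adjusted p = 0.173), although the groups did not overlap. The MEP change exceeded the marrow change by 2.46 ± 0.39 (limma, adjusted p = 0.00417), 1 of the 10 called, against 4.89% of genes. Without leukemic MEP replicate 3 the MEP change was 3.21 (limma, adjusted p = 8.33e-06) and the difference 2.56 (limma, adjusted p = 0.00138).

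Some markers of 4 other cell types also rose in MEP, with none called lower, where 13.7% of all tested genes were called higher. The counts were 10 of 16 tested for granulocytes and monocytes, and 9 of 11 for megakaryocytes. For mast cells and basophils 5 of 7 rose, and for lymphoid cells 2 of 9, the count nearest to that share. Mast cell and basophil markers summed to 6.09 to 9.24 FPKM in control MEP and to 597, 937 and 333 FPKM in leukemic MEP, and to 398 to 662 FPKM in control marrow and 217 to 384 FPKM in GFP+ marrow. Cma1 was at 0 in every MEP library. Of the lymphoid markers, Pax5, Cd3g, Klrd1 and Il7r were at 0 in every leukemic MEP library. Without leukemic MEP replicate 3 the lymphoid markers called higher were Cd79b and Nkg7. The part of these cell types in the rise of Slc7a6 was not tested.

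The light chains that share Slc3a2 were compared as a group of 6, with Slc7a7, Slc7a8, Slc7a10 and Slc7a11 added. Slc7a5 was 60.5, 71.9 and 75.5% of their summed FPKM in control MEP and 26.8, 29 and 14.4% in leukemic MEP. Slc7a6 was 3.26, 5.2 and 2.74% in control MEP and 58.5, 62.9 and 36% in leukemic MEP, so the leading light chain was Slc7a5 in the control and Slc7a6 in the leukemic libraries. In control marrow Slc7a5 had 20.5, 30.3 and 33.3% and Slc7a6 29.8, 29.7 and 26.3%. In GFP+ marrow Slc7a5 had 12.2, 14.2 and 12.4% and Slc7a6 51.5, 54 and 47.9%. For Slc7a8, a light chain with broad neutral substrates, leukemic MEP replicates 1 to 3 had 1.16, 0.347 and 10.5 FPKM and control marrow 6.53 to 9.6 FPKM. Slc7a10 was at 0 in all libraries. Slc3a2 was 3.68 to 4.73 times the sum of the light chains in control MEP, 2.72, 3.38 and 1.5 times in leukemic MEP, 2.3 to 2.48 times in control marrow and 1.41 to 1.94 times in GFP+ marrow.

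**Figure D4:**
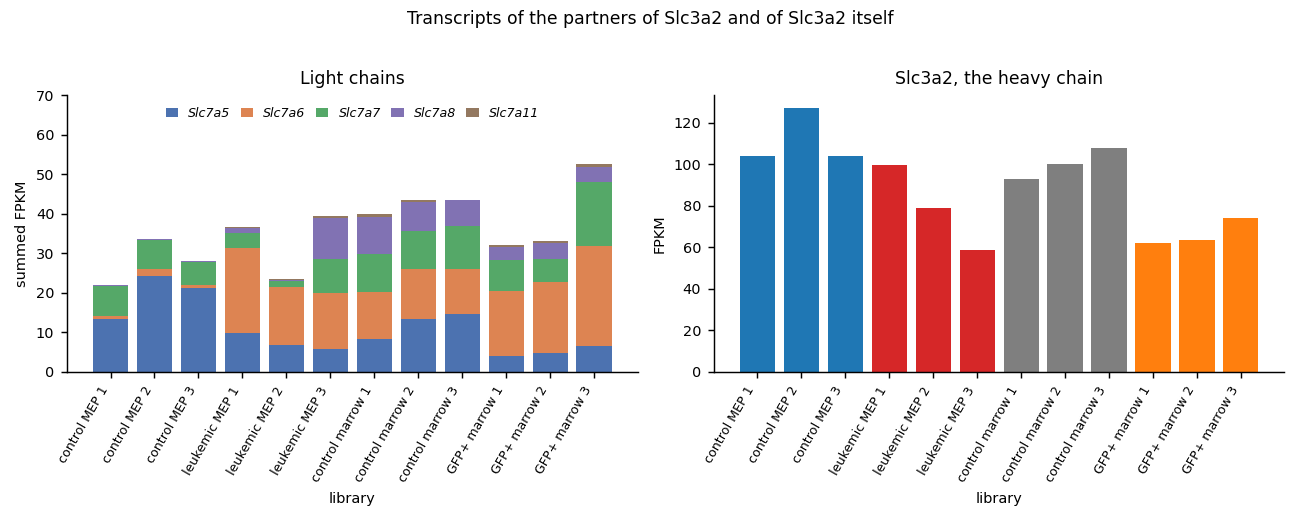
Left, stacked FPKM of the light chains that join Slc3a2 in each of the 12 libraries (Slc7a10, at 0 throughout, is not drawn); right, FPKM of Slc3a2. Slc7a5 leads in control MEP (60.5 to 75.5% of the stack) and Slc7a6 in leukemic MEP (36 to 62.9%), while Slc3a2 is 104 to 127 FPKM in control MEP and 58.9 to 99.5 FPKM in leukemic MEP.

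Slc43a1, the facilitative carrier LAT3 of branched-chain amino acids and phenylalanine, which needs no heavy chain, lies on chromosome 2 from 84838855 to 84863586 (GRCm38). Its span overlaps that of the long non-coding gene D930003E18Rik, whose level was not analysed here, and the strand used in counting is not given in the sources used here. Slc43a1 had 41, 37.5 and 35.3 FPKM in control MEP and 24.3, 20.6 and 8 FPKM in leukemic MEP. It had 18.6, 21.3 and 22.3 FPKM in control marrow and 3.05, 3.5 and 8.1 FPKM in GFP+ marrow. Control MEP lay above every other group, and the Prdm16s and control libraries did not overlap in either population. In marrow Slc43a1 fell by 1.98 ± 0.38 (limma, adjusted p = 0.00709), 4.24-fold by the means, and the call held in each of 22 alternatives. In MEP it fell by 1.19 ± 0.38 (limma, adjusted p = 0.0385), a call lost in 13 of 22 alternatives. Without leukemic MEP replicate 3, the lowest of its group with 24 reads, the MEP change was -0.73 (limma, adjusted p = 0.0971), and without any one of the control libraries the adjusted p was between 0.0527 and 0.102. Erythroid markers fell in the same comparisons, and their part in the Slc7a5 and Slc43a1 values was not tested. The difference between the MEP and marrow changes of Slc43a1 was 0.79 (95% interval -0.40 to 1.97; limma, adjusted p = 0.501).

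Slc7a1, the cationic carrier CAT1 for arginine and lysine, was low in every group. It had 6.87, 5.28 and 4.59 FPKM in control MEP, 3.93, 4.78 and 3.01 FPKM in leukemic MEP, 3.53, 4.88 and 6.09 FPKM in control marrow and 2.79, 3.33 and 2.17 FPKM in GFP+ marrow. MEP groups overlapped and marrow groups did not. The Slc7a1 change was -0.42 ± 0.28 in MEP (limma, adjusted p = 0.288; -0.29 without leukemic MEP replicate 3) and -0.62 ± 0.28 in marrow (limma, adjusted p = 0.202).

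Slc6a9, the glycine importer GlyT1 that supplies red cell precursors, was the lowest of the 10 in level. Control marrow had 1.64, 1.82 and 1.59 FPKM, from 40, 55 and 41 reads, and GFP+ marrow had 0, 0.849 and 0 FPKM, from 0, 3 and 0 reads. Control MEP had 0.394, 0.329 and 0.0427 FPKM, from 12, 8 and 1 reads, and leukemic MEP 0.933, 0.262 and 1.54 FPKM, from 34, 7 and 3 reads. Control marrow was the only group with all 3 libraries above 1 FPKM, and Slc6a9 passed the filter through that group. The counts of 0 in GFP+ marrow replicates 1 and 3 allow levels of up to 0.14 and 0.108 FPKM at 3 reads. Pooled over 3 libraries, 3 reads in GFP+ marrow stood against 136 in control marrow, a ratio of 29.6 after scaling for depth (95% exact Poisson interval of the smaller count, 10.1 to 144). The fitted marrow change of -1.13 ± 0.33 was just outside the threshold (limma, adjusted p = 0.0522), and inside it without leukemic MEP replicate 3 (limma, adjusted p = 0.0184). The filter favours such a fall from control marrow, so that call supports nothing. The MEP change was 0.56 ± 0.33 (limma, adjusted p = 0.232; 0.33 without leukemic MEP replicate 3). The change in MEP exceeded that in marrow by 1.69 ± 0.46, which did not pass the test (limma, adjusted p = 0.0606). The filter favours this difference too.

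Some or all markers of 4 cell types fell with Slc6a9 in marrow, where 6.03% of all tested genes were called lower. All 15 erythroid markers tested fell, as did 3 of 7 mast cell and basophil markers. Of these 7, Fcer1a (mean 4.44 FPKM in control and 49.4 in GFP+ marrow) and Gzmb (2.87 and 26.2) went the other way without overlap. Neither was called, but without leukemic MEP replicate 3 both were called higher (limma, adjusted p = 0.0042 and 0.00341). Macrophage markers, 8 in all, summed to 842 to 911 FPKM in control marrow, 22.4 to 34 FPKM in GFP+ marrow, 3.94 to 11 FPKM in control MEP and 2.76 to 15.1 FPKM in leukemic MEP, and 7 of 8 fell in marrow. Lymphoid markers fell too, 7 of 9 tested, although their sum, 826 to 1010 FPKM in control marrow and 820 to 1092 FPKM in GFP+ marrow, overlapped between the groups. Most of that sum was Nkg7, at 682, 838 and 870 FPKM in control marrow and 705, 929 and 1012 FPKM in GFP+ marrow. Ebf1, Pax5, Cd3e, Cd3g, Cd2 and Klrd1 were at 0 in every GFP+ marrow library. The part of these 4 cell types in the Slc6a9 values was not tested. The 4 genes most like Slc6a9 over the 12 libraries were Rnase4 (r = 0.908), Cd38 (0.883), Fam213b (0.873) and Ly6d (0.867). The likeness of these was lower than for Slc38a5. Cd38 encodes a surface enzyme of many leukocytes and Ly6d is a marker of early lymphoid cells.

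For Slc7a5 the 4 most alike genes were Pmm1 (r = 0.980), Srm (0.971), Blvrb (0.963) and Mrpl38 (0.962). Srm encodes spermidine synthase, and Blvrb a biliverdin reductase abundant in red cells. Srm had mean levels of 562 FPKM in control MEP, 201 in leukemic MEP, 302 in control marrow and 183 in GFP+ marrow, beside Slc7a5 means of 19.6, 7.41, 12 and 5.04 FPKM, which put the groups in the same order. Srm was picked for its likeness over these same libraries, so the shared order adds nothing to it.

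Between the control populations, 3 of the 10 transporters were called, against 15.0% of genes. For 1 of them, Slc6a9, the filter was passed through control marrow, the higher group, so that call was favoured by the filter and supports nothing. Slc38a5 was higher in control MEP than in control marrow by 1.39 ± 0.33 (limma, adjusted p = 0.0136). Slc7a6 was lower in control MEP, with a difference of -2.69 ± 0.28 (limma, adjusted p = 4.26e-05), and Slc6a9 differed by -1.11 ± 0.33 (limma, adjusted p = 0.0398). The Slc38a5 difference missed the threshold without control marrow replicate 1 (1.23; limma, adjusted p = 0.0777), control MEP replicate 2 (1.33, 0.057) or control MEP replicate 3 (1.38, 0.053), and with a pseudocount of 0.1 (1.40, 0.177). The Slc6a9 difference missed it without any one of the 6 control libraries (adjusted p 0.0743 to 0.153). Between the Prdm16s populations 2 of the 10 differed, against 3.05% of genes. Slc38a5 was higher in leukemic MEP than in GFP+ marrow by 1.81 ± 0.33 (limma, adjusted p = 0.019; 1.54 without leukemic MEP replicate 3) and Slc43a1 by 1.63 ± 0.38 (limma, adjusted p = 0.0434). The first missed the threshold in 4 of 22 alternatives, among them those without leukemic MEP replicate 1 (limma, adjusted p = 0.0785), GFP+ marrow replicate 2 (0.052) or GFP+ marrow replicate 3 (0.0509). The Slc43a1 difference missed it in 15 of 22, and was 2.09 without leukemic MEP replicate 3 (limma, adjusted p = 0.000386). The comparisons share groups with each other and are not independent.

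Other genes of amino acid transport and use were taken from 6 lists, whose counts stand against 13.7% of all tested genes called higher and 12.3% lower in MEP, and 3.02% and 6.03% in marrow. Of 32 other plasma membrane transporters, 10 were tested, and in MEP 1 fell and none rose, with a median change of 0.03. Slc16a10, a carrier of aromatic amino acids, was that 1: it fell by 1.86 ± 0.27 in MEP, from a mean of 21.1 to 5.29 FPKM (limma, adjusted p = 0.000391; -2.11 without leukemic MEP replicate 3), and by 1.61 ± 0.27 in marrow, from 17.8 to 5.24 FPKM (limma, adjusted p = 0.00274). In marrow 2 of the 10 fell, with a median of -0.52, the second being Slc36a2, a proton-coupled carrier of small amino acids such as glycine. Slc36a2 had 2.35, 1.53 and 1.17 FPKM in control marrow and 0.0942, 0 and 0 FPKM in GFP+ marrow. It passed the filter through control marrow, the group where it is high, which favours a fall, so its call supports nothing. Of 15 tested carriers of mitochondria and other organelles, 1 rose and 3 fell in MEP (median -0.40), and none was called in marrow (median -0.26). Slc25a38, the mitochondrial glycine carrier of haem synthesis, fell by 2.28 ± 0.53 in MEP, from 84.1 to 20.2 FPKM (limma, adjusted p = 0.00816). Without leukemic MEP replicate 3 the Slc25a38 change was -1.57 (limma, adjusted p = 0.00822). Sfxn1, the mitochondrial serine carrier, fell by 1.02 ± 0.23, from 227 to 115 FPKM (limma, adjusted p = 0.00685; -0.75 without that replicate).

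Among 28 tested genes of amino acid sensing upstream of mTORC1, 3 rose in MEP and 1 in marrow, and none fell; both counts of rises are near the shares of all genes called higher, 13.7% and 3.02%. Lamtor4, a subunit of the lysosomal Ragulator scaffold, rose from 35.5 to 77.2 FPKM in MEP (limma, adjusted p = 0.0122; change 1.19, and 1.06 without leukemic MEP replicate 3), and Deptor, an inhibitor bound to the kinase, from 4.48 to 12.7 FPKM (limma, adjusted p = 0.0163; change 1.29, and 1.60 without it). Fnip1, a partner of folliculin, rose by 1.17 ± 0.32 in marrow (limma, adjusted p = 0.0428) and by 0.96 ± 0.32 in MEP (limma, adjusted p = 0.0467), where without leukemic MEP replicate 3 the change was 0.70 and missed the threshold (limma, adjusted p = 0.121).

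Of 20 tested genes of the amino acid response, 1 rose and 5 fell in MEP and 1 fell in marrow. Of all tested genes 13.7% were called higher and 12.3% lower in MEP, and 3.02% and 6.03% in marrow. Asns, which makes asparagine from aspartate and glutamine, had 426, 377 and 404 FPKM in control MEP and 29.9, 33.1 and 21.7 FPKM in leukemic MEP. In control marrow it had 139, 165 and 187 FPKM and in GFP+ marrow 22.2, 43.3 and 24.9 FPKM, so that both populations were separated without overlap. The fall of Asns was -3.80 ± 0.26 on the log2 scale for MEP (limma, adjusted p = 2.01e-06; -3.63 without leukemic MEP replicate 3) and -2.45 ± 0.26 for marrow (limma, adjusted p = 0.000121). Eif4ebp1, a repressor of translation under mTORC1 control, fell by 1.27 ± 0.28 in MEP, from 401 to 166 FPKM (limma, adjusted p = 0.00613; -1.05 without leukemic MEP replicate 3). Atf4, a transcription factor of this response and a gene outside the rule for naming, had mean levels of 70.3 ± 13.5 and 74.3 ± 35.2 FPKM in control and leukemic MEP (SD, n = 3 each). Slc7a5, Slc3a2, Slc38a2, Slc7a1 and Slc1a5 are often counted among the genes this response induces. Of these Slc7a5 was called in MEP, where it fell, and none was called in marrow. Without leukemic MEP replicate 3, Slc38a2 (0.94) was called higher in marrow, and Slc7a5 (-1.09) and Slc3a2 (-0.59) lower.

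Of 20 cytosolic aminoacyl-tRNA synthetases, which load amino acids onto their tRNAs, 15 fell and none rose in MEP, against 12.3% of genes that were called lower. The median change of the 20 was -1.07 in MEP and -0.57 in marrow, where 2 fell, against 6.03% of genes. Leaving out leukemic MEP replicate 3, 17 fell in MEP and 5 in marrow. Hars, for histidine, fell by 1.43 ± 0.18 in MEP, from 180 to 66.8 FPKM (limma, adjusted p = 0.000177; -1.53 without that replicate), and by 0.92 ± 0.18 in marrow, from 105 to 54.8 FPKM (limma, adjusted p = 0.00837). Farsb, for phenylalanine, fell by 1.25 ± 0.20 in MEP (limma, adjusted p = 0.000732; -1.10 without that replicate), and Gars, for glycine, fell by 1.15 ± 0.29 in marrow (limma, adjusted p = 0.0284). The erythroid marker sum was lower in the same libraries, 623 to 3224 FPKM in leukemic MEP against 11763 to 13438 FPKM in control MEP, and its part in these falls was not tested.

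Of 19 tested enzymes that use glutamine or glycine, 1 rose and 7 fell in MEP (median -0.46), and 1 rose and 2 fell in marrow (median -0.24), against 13.7% of all genes higher and 12.3% lower in MEP, and 3.02% and 6.03% in marrow. Got2, the mitochondrial aspartate aminotransferase, fell by 1.46 ± 0.24 in MEP, from 57.2 to 20.3 FPKM (limma, adjusted p = 0.000891; -1.24 without leukemic MEP replicate 3). Ppat, which takes nitrogen from glutamine in the first step of purine synthesis, fell by 1.27 ± 0.24, from 78 to 31.6 FPKM (limma, adjusted p = 0.00224; -1.13 without it). In marrow Alas2, the red cell enzyme that joins glycine to succinyl-CoA in haem synthesis, fell by 4.55 ± 0.29, from 51.4 to 1.24 FPKM (limma, adjusted p = 3.15e-06). Gclm, the modifier subunit of the first enzyme of glutathione synthesis, rose by 1.32 ± 0.32 there, from 66.2 to 173 FPKM (limma, adjusted p = 0.023).

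**Figure D5:**
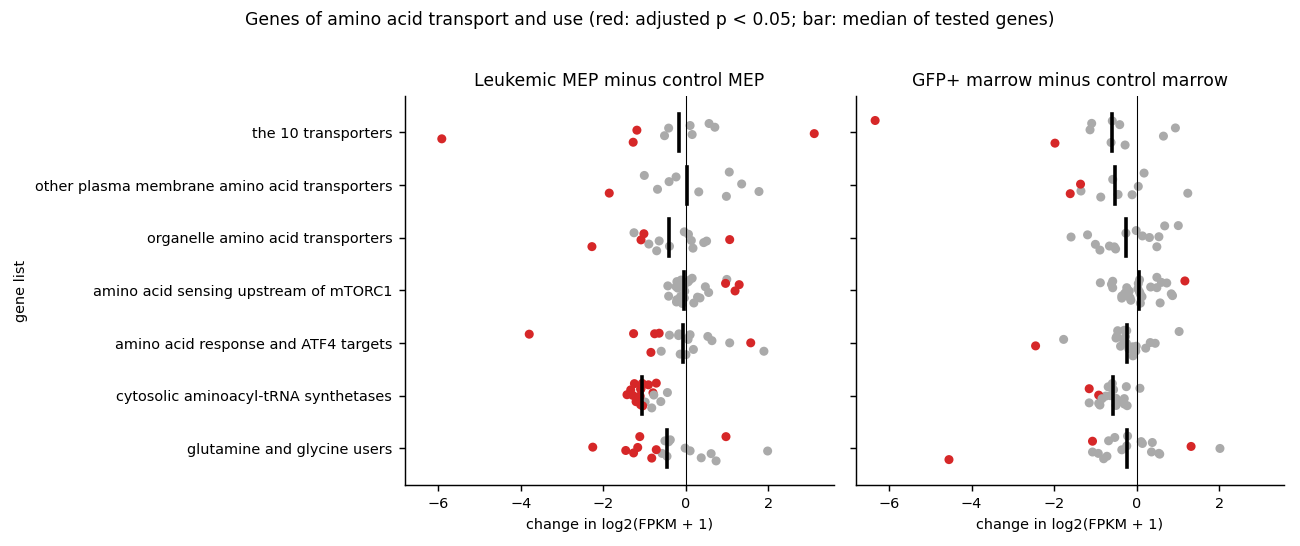
Change of each tested gene of the 10 transporters and the 6 further lists, on the log2(FPKM + 1) scale, in MEP (left) and marrow (right); red marks an adjusted p below 0.05 and the bar the median of the list. The synthetases sit below 0 in MEP as a group (median -1.07, 15 of 20 called lower), while the sensing genes centre near 0 (median -0.05).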

How the data were processed

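RNA-seq of 12 libraries of sorted or whole mouse marrow cells was used, 3 in each of 4 groups named by the labels. The authors deposited FPKM values of 24107 genes. Per the labels' protocols, Smart-seq2 cDNA of Trizol-sorted cells went into Nextera XT libraries for a HiSeq2500. Per the submitters' processing notes, CASAVA, bcl2fastq, STAR 2.5.3a and DESeq2 1.18.1 were used with mm10. The annotation, the counter and the strand setting were not given in the sources used here. Every deposited FPKM value of the 16728 genes above 0 gave whole reads (within 0.02), with library denominators proportional to median-of-ratios size factors, and 7379 genes were at 0 throughout.

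Changes were tested with limma 3.58.1 (limma-trend, R 4.3.3) on log2(FPKM + 1), 4 groups in 1 fit with 8 residual degrees of freedom, for genes with at least 1 FPKM in at least 3 libraries, called at a Benjamini-Hochberg adjusted p below 0.05. The script was tested on simulated data. A 2-sided exact permutation test of 3 against 3 cannot go below 0.1 and was not used. Named genes were the 10 transporters, the 2 called genes with the smallest p of each further list in MEP and in marrow, the 4 genes most alike to Slc38a5, Slc6a9 and Slc7a5 (mean of at least 10 FPKM in 1 group), and Prdm16. The members and lists were chosen with earlier results of these data known. Gene positions and promoters are RefSeq's (GRCm38.p6), matched for 24061 genes by Entrez number. Python 3.11.15 with numpy 2.4.6, pandas 2.3.3, scipy 1.17.1 and matplotlib 3.10.9 made the tables and figures. Alternatives covered the pseudocount, the filter, scaling, library weights, voom on the whole reads, the replicate block, the 2 groups alone and each library left out.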

Additional observations from a re-analysis of the deposited data

Results flagged for a closer look

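The change in MEP minus the change in marrow passed the test for 3 of the genes described. It was 2.46 on the log2 scale for Slc7a6 (limma, adjusted p = 0.00417), which was low in control MEP and higher in the other 3 groups. It was 4.09 for Alas2 (limma, adjusted p = 0.000256), at 51.4 FPKM in control marrow and 0.963 to 1.66 FPKM by group mean elsewhere. For Slc36a2 it was 1.67 (limma, adjusted p = 0.0468), and its group means were 1.68 FPKM in control marrow and at most 0.344 FPKM in the others. Slc36a2 entered testing through control marrow, the group where it is high, which favours such a difference, so that value supports nothing. Without leukemic MEP replicate 3 the differences were 2.56 for Slc7a6, 3.83 for Alas2 and 1.33 for Slc36a2.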

How the results depend on the processing

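Over 1085 alternative values of the 10 transporters, 972 kept their direction and side of the threshold, 46 lost a call, 50 gained one and 17 reversed; the cause was not tested. The falls of Slc38a5 in both comparisons, of Slc43a1 in marrow and the Slc7a6 rise in MEP kept their calls in 22 of 22 alternatives, and the Slc7a6 difference in 21 of 21. Reversed values, none of them called, were as follows. In MEP Slc38a1 was -0.01 (range over left-out libraries -0.01 to 0.21) without leukemic MEP replicate 3 and -0.01 without both shallow libraries, an alternative chosen after seeing the data. In the difference of changes, Slc38a2 was 0.02 with equal FPKM totals and 0.07 without leukemic MEP replicate 1 (range -0.60 to 0.07), Slc7a5 0.01 with equal totals, 0.27 with array weights and 0.04 without control marrow replicate 1 (range -0.43 to 0.04), Slc3a2 -0.10 without leukemic MEP replicate 1, and Slc7a1 -0.23 with quantile normalization. Between controls, Slc38a2 was 0.05 with equal totals, 0.05 without control marrow replicate 1 and 0.03 without control MEP replicate 2 (range -0.32 to 0.05), Slc3a2 -0.04 with quantile normalization and Slc7a1 -0.04 with array weights. Between Prdm16s populations, Slc38a2 was 0.07 and Slc7a6 0.19 with equal totals, and Slc7a6 0.22 with array weights. Equal totals moved the median of all genes from -0.05 to -0.25 in marrow, where 18.6% of calls were then higher against 33.4%, and to 0.37 between Prdm16s populations (79.3% higher against 32%). Between controls quantile normalization moved it from 0.03 to 0.26 (40% higher against 17.6%).

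With array weights 6151 genes were called in MEP, 3453 in marrow, 2966 for the difference, 5511 between controls and 3285 between Prdm16s populations, against 2976, 1037, 560, 1716 and 350. With voom they were 1907 in marrow, 893 for the difference, 2731 between controls and 1780 between Prdm16s populations. The 2 groups alone gave 1698 in MEP, 1769 in marrow, 3641 between controls and 0 between Prdm16s populations (1171 genes there at an unadjusted limma p under 0.05). Without both shallow libraries there were 1806, 1003, 2849 and 1685 for marrow, the difference, controls and Prdm16s. Between Prdm16s populations a pseudocount of 0.1 gave 225, no filter 205, equal totals 643 and quantile normalization 194. Transporters called in marrow were 5 with equal totals, 8 with array weights, 5 with voom, 5 with the 2 groups alone and 4 without both shallow libraries. For the difference they were 2, 4, 2 and, without both shallow libraries, 2. Slc6a9, whose marrow fall the filter favours, is in each of these marrow and difference counts except that of the 2 groups alone. Between controls the transporters called were 1 with a pseudocount of 0.1 and 5 with array weights. Between Prdm16s populations they were 1 with a pseudocount of 0.1, 1 without a filter, 1 with quantile normalization, 6 with array weights and 0 with the 2 groups alone. Array weights called 6 transporters in MEP.

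Leaving out 1 library at a time gave 1916 to 3385 genes and 2 to 6 transporters in MEP, 388 to 2126 and 2 to 6 in marrow, 213 to 1075 and 1 to 2 for the difference, 944 to 2780 and 1 to 4 between controls, and 46 to 1760 and 0 to 2 between Prdm16s populations. Whether replicate numbers pair the samples is not given by the labels. Same-numbered deviations correlated at -0.157 to -0.0521 in MEP, -0.0619 to 0.0204 in marrow, 0.0734 to 0.497 between controls and 0.0862 to 0.215 between Prdm16s populations. In the last alone each sample correlated best with its own number, a hint from the data and not the design. The replicate block called 2830, 932, 490, 1607 and 287 genes and 3, 2, 1, 2 and 1 transporters in the 5 comparisons. Slc6a9 had no value under the filter of 5 FPKM, and the difference of changes none with the 2 groups alone. Depth limits the low values: leukemic MEP replicate 3 had 12 reads of Slc7a5 and 3 of Slc6a9.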
